A study of Mus musculus with 12 samples.

Results

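The potassium channel family was followed across 4 samples of whole mouse heart at postnatal day 8. Its members were the genes whose symbol in the platform annotation starts with Kcn, 90 genes measured by 105 probes, out of 17742 named genes and 26423 probes in all. Where a gene had several probes, the 1 that was brightest on average across all 12 arrays stood for it. The mutant group was 2 samples labelled Salv CKO, a conditional mutant of Salvador (Sav1), the scaffold protein of the Hippo kinase pathway. They were set against 2 samples labelled Control, given as wild-type, and all 4 came from mice of a C57bl/6 X 129 hybrid background. Each sample was hybridised to 3 one-colour arrays with Cy5, and the 3 arrays were averaged and counted as 1 sample. The Cre driver, the deleted part of the gene and whether a sample held 1 heart or several were not stated in the labels.

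Potassium channels let potassium leave the cell and so end the action potential and hold the resting potential. In heart muscle, voltage-gated (Kv) channels repolarise the membrane, inward rectifiers clamp it at rest, and tandem-pore channels carry a steady background current. Calcium-activated channels open when calcium rises. Accessory subunits have no pore of their own and set how many channels reach the surface and how fast they open and close. In mouse ventricle, repolarisation leans on a fast transient outward current, which is carried by Kcnd2 and Kcnd3 pores together with the calcium-binding subunit Kcnip2.

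Levels are given as log2(intensity + 1) after quantile normalization between arrays, and every difference is Salv CKO minus Control on this log2 scale. Array medians of the deposited intensities ran from 58 to 88. Levels of different probes depend on the probes themselves and were not read as relative abundance. Heart muscle markers were bright in every sample, with Tnnt2 between 14.99 and 15.31, and with Actc1 between 15.35 and 15.62. Of 9 ventricular muscle markers listed, 3 were measured, and Myh6, Myl2 and Ryr2 were not analysed here. Sav1 did not separate the groups, with levels of 8.06 and 8.52 in the Salv CKO-labelled samples against 8.75 and 8.08 in those labelled Control. Directions below are therefore those of the labels only. In whole tissue, fewer cells of a type and less RNA per cell cannot be told apart. Lung epithelium markers set single samples apart. All 6 markers were measured, and their intensities summed to 1985 in Salv CKO 1 and 79.0 in Salv CKO 2, while they summed to 76.6 in Control 1 and 5563 in Control 2. The 2 high sums rested mostly on Scgb3a2 and Scgb1a1, and the dim Cdh1 was lower in Salv CKO 1 than in Salv CKO 2. Of 8 brown fat and adipocyte markers measured, 7 had a difference below 0, while 46.9% of named genes had one above 0. Their median difference was -0.99, with sums of 8284 and 3895 in Salv CKO 1 and 2 against 12205 and 8896 in the controls. Samples overlapped for Ucp1, at 11.95 and 9.75 against 12.71 and 11.74, and for Plin1, at 8.74 and 7.31 against 9.45 and 8.64. Cfd, Cidec, Cidea, Adipoq and Elovl3 lay lower in both Salv CKO-labelled samples without overlap, Cfd at 5.51 and 4.22 against 6.77 and 6.57. The dim Lep differed by 0.43. In limma, 1 of these markers, Cfd, was lower at an unadjusted p under 0.05, against 1.76% of named genes. None passed after adjustment. Of the conduction system markers 7 were measured, and they were summed highest in Control 1, at 1686 in Salv CKO 1 and 1836 in Salv CKO 2, with 2839 in Control 1 and 1779 in Control 2. This sum rested mostly on the connexin gene Gja5, at 9.64 and 9.95 against 10.72 and 9.78, and on Tbx3, at 9.33 and 9.44 against 9.97 and 9.44. The dim Isl1 was highest in Control 1 too, but the other markers were not. Cntn2 was highest in Salv CKO 1, Shox2 in Salv CKO 2 and Hcn4 in Control 2, and Cpne5 was lowest in Control 1, at 3.93. Control 1 also stood apart for 4 members below, in both directions: Kcnip2 and Kcnj3 were lowest in it, and Kcna5 and Kcnh2 were highest. The part of conduction system cells in the members' levels was not tested.

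Of the 90 members, 39 had a mean level of at least 6 over the 4 samples and are called bright here, and 51 lay below it. Over all named genes, 61.1% were bright. The members nearest to this threshold were Kcne1l at 5.93 and Kcnab2 at 5.88 just under it, and Kcnh3 at 6.05 and Kcna4 at 6.05 just above it. Bright members made up 16 of 36 voltage-gated genes, 8 of 15 inward rectifiers, 6 of 13 tandem-pore genes, 2 of 8 calcium- and sodium-activated genes and 7 of 17 accessory genes. The non-coding antisense RNA Kcnq1ot1 was dim. Within the voltage-gated genes, all 3 members of the Kv3 class were bright, whereas 1 of 10 modulatory Kv genes was. The modulatory genes encode pores that are silent alone and change other Kv channels. The 29 measured genes of the known cardiac currents included 24 bright ones.

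**Figure D1:**
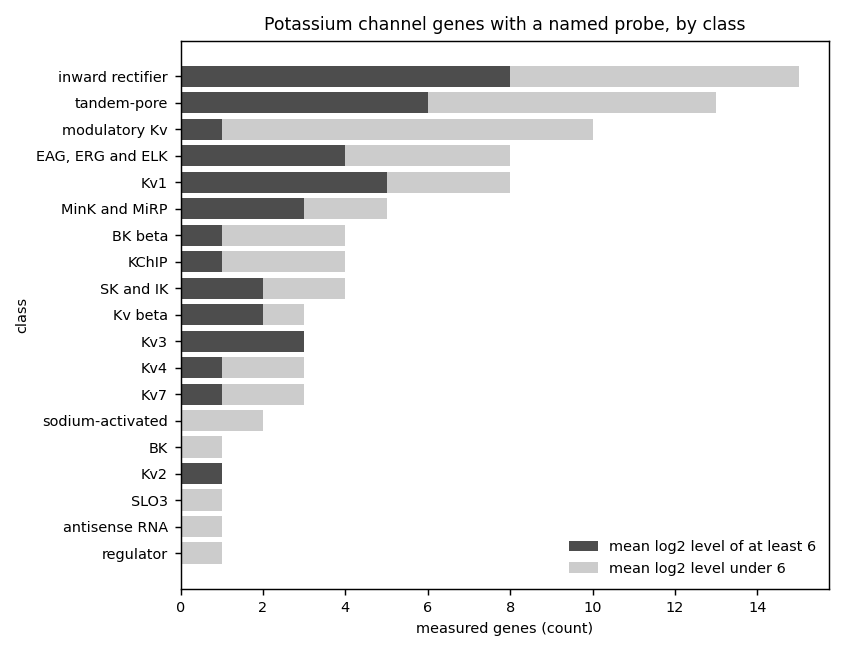
Number of measured potassium channel genes in each class (x axis, count of genes), split by mean log2 level over the 4 samples. Dark bars count members with a mean level of at least 6 (39 genes in all) and light bars those under it (51 genes).

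No potassium channel gene passed the test over the whole array. In limma, 0 of 90 members had an adjusted p under 0.05, as did 0% of all 26423 probes, and the smallest adjusted p over the array was 0.999. Without adjustment, 4 members fell under a p of 0.05 in limma, Kcnd2 and Kcnj9 lower and Kcnh1 and Kcnma1 higher in the Salv CKO-labelled samples. The background at this threshold was 3.96% of all probes and 3.31% of named genes, or 1.76% lower and 1.55% higher. Among the 39 bright members 1 gene, Kcnd2, reached it and was lower, against 1.27% of bright named genes, or 0.609% lower and 0.665% higher. These counts are near the background, and no result about the family is read from them.

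Across the family the differences lay around 0. The median over the 90 members was -0.039, with 37 above 0, beside a median of -0.020 over all named genes, of which 46.9% were above 0. Both Salv CKO-labelled samples lay above both controls for 9 members, against 14.2% of named genes. They lay below both controls for 22 members, against 16.5% of named genes. Of the bright members, 13 of 39 had a difference above 0, against 46.3% of bright named genes, and 11 did not overlap between the groups, against 29.7%. This split depended on the scaling of the arrays. It was 9 higher and 22 lower as given, and 11 higher and 16 lower with arrays centred on their medians. With no normalization it was 22 higher and 4 lower, where the median of all probes shifted to 0.11 and that of the members to 0.16. Shares of named genes under these other scalings are not given, so the counts show only that the split moved.

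**Figure D2:**
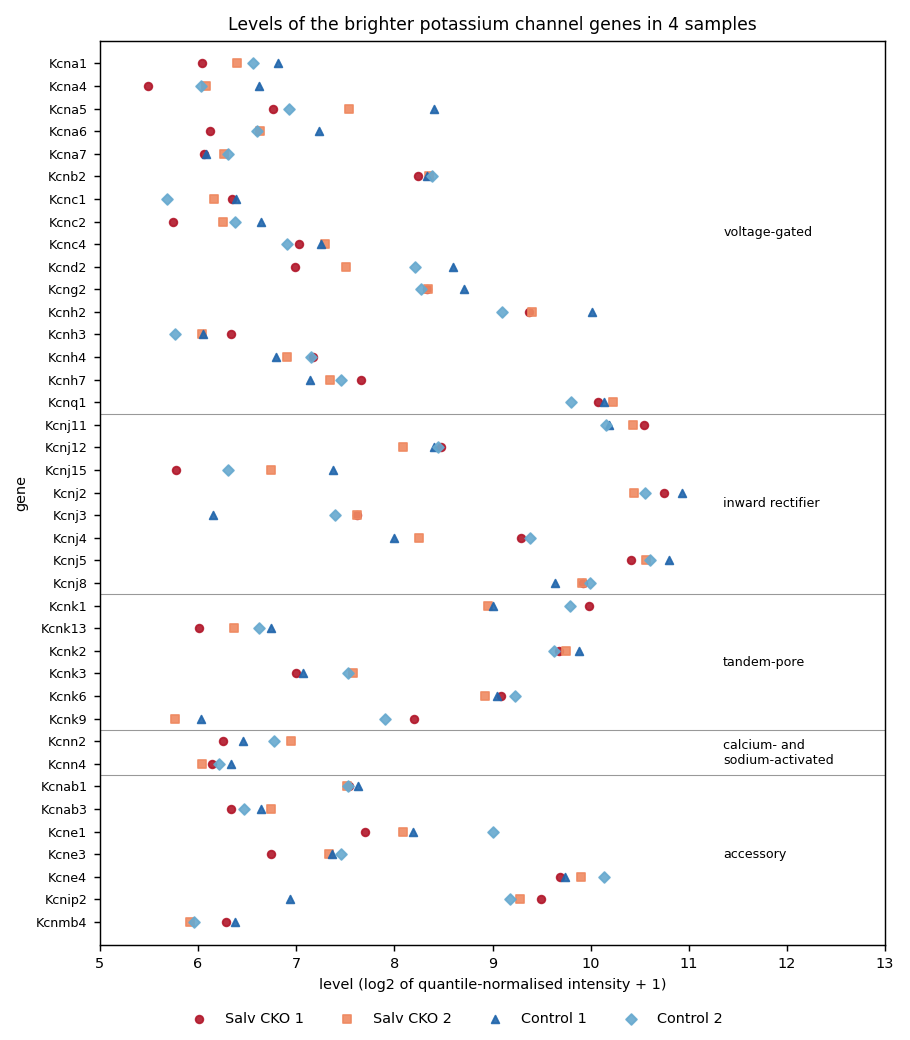
Levels of the 39 bright potassium channel genes (y axis) in each of the 4 samples (x axis, log2 of the quantile-normalised intensity + 1), grouped by class. Points are means of 3 technical arrays, and the position of Control 1 (dark triangles) apart from the other 3 samples can be seen for Kcnip2 and Kcnj3.

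Kcnd2 and Kcnip2, a pore and an accessory subunit of the transient outward current, differed in opposite directions. Theirs were the largest differences among the bright members, and that of Kcnip2 rested on Control 1. Kcnd2, the main pore of this current in mouse ventricle, had a level of 6.99 and 7.51 in the Salv CKO-labelled samples against 8.60 and 8.21 in the controls. Its arrays ran from 6.81 to 7.10 in Salv CKO 1 and from 7.46 to 7.59 in Salv CKO 2, compared with 8.55 to 8.66 in Control 1 and 8.08 to 8.32 in Control 2. No array of the Salv CKO-labelled samples thus reached the lowest control array. Bright genes lower on every array made up 4.91% of bright named genes. The difference in Kcnd2 was -1.15 ± 0.30 (SE, limma, unadjusted p = 0.0135, adjusted p = 0.999). It ran from -1.41 to -0.89 with 1 sample left out, and from -1.22 to -0.94 under other scalings and pseudocounts. In a fit of all 12 arrays with the sample as a random block, Kcnd2 alone among the members passed (limma, adjusted p = 0.0379), where 61 of 26423 probes did. That fit uses 1 correlation of 0.54 between arrays of a sample for all probes, while for Kcnd2 the SD was 0.11 between technical arrays and 0.33 between samples of a group. Repeat arrays of Kcnd2 thus count in part as replicates there. It did not pass in any other setting.

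Kcnip2, the calcium-binding subunit that brings Kcnd2 and Kcnd3 to the surface, had levels of 9.50 and 9.28 in the Salv CKO-labelled samples against 6.94 in Control 1 and 9.18 in Control 2. Deposited intensities averaged 610 and 734 in the Salv CKO-labelled samples against 115 and 530 in Control 1 and Control 2. The groups did not overlap, but only Control 1 stood apart, and its 3 arrays ran from 6.89 to 6.99. The difference of 1.33 ± 0.77 (SE, limma, adjusted p = 0.999) became 0.20 without Control 1 and 2.45 without Control 2. Kcnip2 was thus lowest in the sample in which Kcnd2 was highest.

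The promoters of both genes are shown because they encode partners in 1 channel, followed by those of Kcna5 and Kcnk13, which hold the core motif of the TEAD factors. TEAD proteins are the DNA-binding partners of Yap1 and Wwtr1, the co-activators that the Hippo pathway restrains. The motif searched was CATTCC, on both strands (GGAATG), and matches are in capitals. The sequences are from RefSeq (GRCm38.p6), written 5′ to 3′ along the gene's strand, from 250 bases before the start of the gene to 50 after it.
Kcnd2, chr6:21215096-21215395, plus strand: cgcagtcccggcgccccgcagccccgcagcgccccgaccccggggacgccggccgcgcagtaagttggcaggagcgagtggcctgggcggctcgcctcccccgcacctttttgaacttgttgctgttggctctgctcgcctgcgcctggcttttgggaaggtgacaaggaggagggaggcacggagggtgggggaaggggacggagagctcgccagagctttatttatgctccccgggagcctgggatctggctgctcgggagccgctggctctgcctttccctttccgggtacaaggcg
Kcnip2, chr19:45816014-45816313, minus strand: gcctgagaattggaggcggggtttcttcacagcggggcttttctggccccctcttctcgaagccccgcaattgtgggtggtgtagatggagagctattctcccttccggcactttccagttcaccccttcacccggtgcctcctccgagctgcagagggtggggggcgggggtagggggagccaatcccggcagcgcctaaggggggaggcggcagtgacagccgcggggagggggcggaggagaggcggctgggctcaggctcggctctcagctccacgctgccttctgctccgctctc
Kcna5, chr6:126535506-126535805, minus strand: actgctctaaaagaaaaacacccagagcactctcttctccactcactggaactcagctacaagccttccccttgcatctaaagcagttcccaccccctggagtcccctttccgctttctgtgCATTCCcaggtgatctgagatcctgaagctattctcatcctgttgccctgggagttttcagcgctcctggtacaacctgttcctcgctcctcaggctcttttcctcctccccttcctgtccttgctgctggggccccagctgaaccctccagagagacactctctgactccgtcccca
Kcnk13, chr12:99964249-99964548, plus strand: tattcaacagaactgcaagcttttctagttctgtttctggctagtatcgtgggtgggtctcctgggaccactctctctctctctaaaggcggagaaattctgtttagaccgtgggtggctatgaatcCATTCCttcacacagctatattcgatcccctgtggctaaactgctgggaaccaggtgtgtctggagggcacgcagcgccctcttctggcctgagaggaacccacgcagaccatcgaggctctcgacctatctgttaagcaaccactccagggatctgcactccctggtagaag
The promoter table held 94 promoters for 69 of the 90 members. The motif stood in 14 of these 94 (14.9%), against 14.7% of all 32851 promoters of the same length. Among the promoters of bright members it stood in 5 of 36 (13.9%), those of Kcna5, Kcnk1, Kcnk2, Kcnk13 and Kcnn4. The windows of Kcnd2 and Kcnip2 do not hold these letters, and a match describes the letters only.

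Kcnd3, the other pore of the fast current, was dimmer, with a level of 4.57 in Salv CKO 1 and 5.57 in Salv CKO 2, compared with 5.83 and 5.70 in the controls. It lay lower in both Salv CKO-labelled samples, with a difference of -0.70 ± 0.39 (SE, limma, adjusted p = 0.999) that became -0.19 without Salv CKO 1. The second Kcnd3 probe was near background, at levels of 1.59 and 2.07 against 1.56 and 1.61, and pointed the other way. Kcna4, the pore of the slow transient outward current, had levels of 5.49 and 6.08 in the Salv CKO-labelled samples against 6.62 and 6.03 in the controls, so that the groups overlapped. Kcne3, an accessory subunit that can slow or damp Kv channels, stood at 6.75 and 7.33 against 7.37 and 7.46 in the controls. Its difference of -0.37 rested on Salv CKO 1 and was -0.078 without it.

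**Figure D3:**
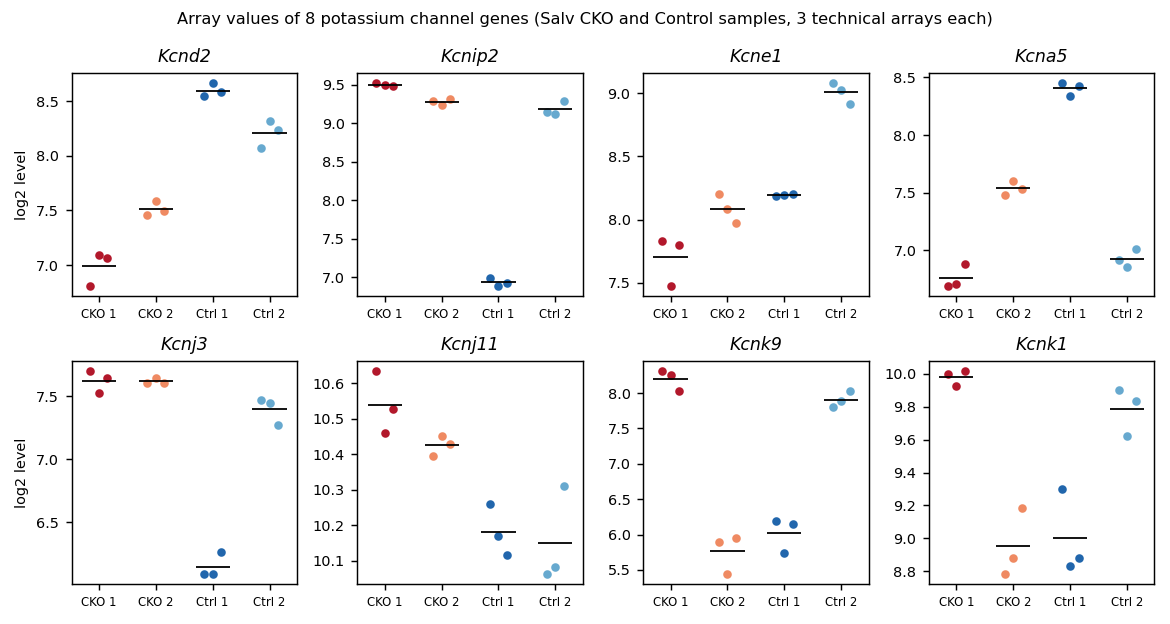
Log2 levels of 8 potassium channel genes on each of the 12 arrays (points), with the mean of each sample as a bar; the y axes differ between panels. CKO stands for Salv CKO and Ctrl for Control. Kcnd2 parts the groups on every array, Kcnip2 and Kcnj3 part Control 1 from the rest, and Kcnk9 and Kcnk1 are high in Salv CKO 1 and Control 2.

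The delayed rectifier genes carry the later phase of repolarisation. Kcne1 (MinK), which joins Kcnq1 to form the slow delayed rectifier, had levels of 7.70 and 8.09 in the Salv CKO-labelled samples against 8.19 and 9.01 in the controls. Its difference of -0.70 ± 0.36 (SE, limma, adjusted p = 0.999) was -0.30 without Control 2, the sample in which it was highest. Kcnq1 itself, the pore, differed little, with 10.08 and 10.23 against 10.14 and 9.80 in the controls, a difference of 0.19 ± 0.24, which was 0.016 without Control 2 and close to 0 with median centring. Kcne1 thus lay lower in both Salv CKO-labelled samples after normalization, whereas its pore overlapped between the groups. Single Kcne1 arrays overlapped, with up to 8.20 in Salv CKO 2 and from 8.18 in Control 1. Deposited intensities of Kcne1 averaged 192 and 318 against 292 and 470, so the groups overlapped before normalization. Kcnh2, the pore of the rapid delayed rectifier, stood at 9.37 and 9.41 against 10.01 in Control 1 and 9.09 in Control 2. Its difference of -0.16 turned to 0.30 without Control 1.

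Of the bright Kv1 genes, Kcna1, Kcna4, Kcna5 and Kcna6 were highest in Control 1. Kcna5, the pore of an ultrarapid delayed rectifier, had levels of 6.76 and 7.54 in the Salv CKO-labelled samples against 8.40 in Control 1 and 6.93 in Control 2. The arrays of each sample lay close together, with a technical SD of 0.080, so the range of 1.64 lay between samples and not between arrays. The difference of -0.51 ± 0.59 turned to 0.22 without Control 1. Kcna6 stood at 6.12 and 6.63 against 7.23 and 6.60, and Kcna1, a delayed rectifier pore best known from neurons, at 6.04 and 6.39 against 6.81 and 6.56. Of these, Kcna1 alone did not overlap between the groups (-0.47 ± 0.25, SE), and its difference was -0.29 without Salv CKO 1. Kcna7, a Kv1 pore of heart and skeletal muscle, differed by -0.037, from 6.06 to 6.30 over the 4 samples. The second probes of Kcna5 and Kcna6 were dimmer and differed by 0.19 and -0.80, so the probes of Kcna5 disagreed in sign.

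The remaining bright voltage-gated members differed by between -0.50 for Kcnc2 and 0.28 for Kcnh3. Kcnb2, a slow delayed rectifier pore of the Kv2 class, was among the steadiest members, from 8.24 to 8.38 over the 4 samples. Of the Kv3 genes, fast-gating pores known from neurons, Kcnc2 lay lower in both Salv CKO-labelled samples (5.75 and 6.26 against 6.64 and 6.38 in the controls), by -0.50 ± 0.28 (SE), and by -0.25 without Salv CKO 1. Kcnc1 differed by 0.22 and Kcnc4 by 0.079, each with overlap between the groups. Kcng2, a modulatory pore, had levels of 8.33 and 8.34 against 8.71 and 8.27. Among the relatives of Kcnh2, the bright members Kcnh3, Kcnh4 and Kcnh7 differed by 0.28, 0.074 and 0.21, each with an SE of 0.25, and Kcnh7 by 0.049 without Salv CKO 1. None of these genes passed in limma over all probes.

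**Figure D4:**
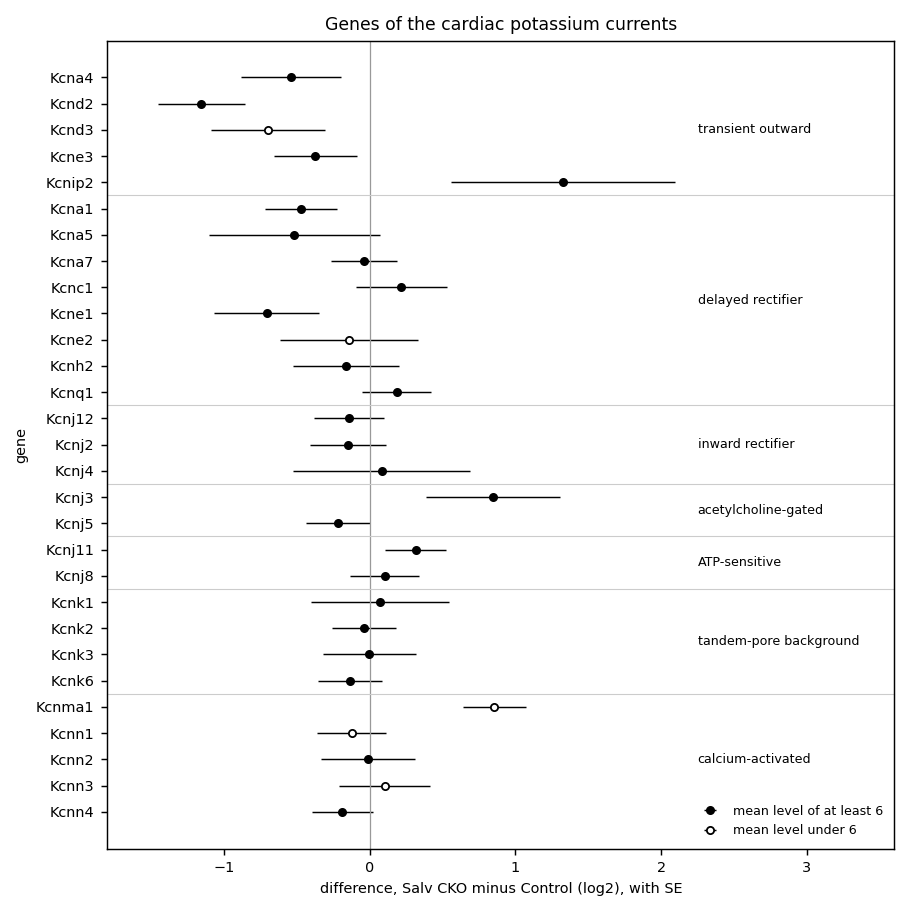
Difference between Salv CKO and Control (x axis, log2, points with SE from limma) for the 29 measured genes of the cardiac potassium currents. Filled points mark members with a mean level of at least 6. Kcnd2 lies lowest at -1.15 and Kcnip2 highest at 1.33 with the longest bar, while the inward rectifier pores Kcnj2 and Kcnj12 lie close to 0.

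The pores of the resting current differed little. Kcnj2, the main strong inward rectifier of ventricle, had levels of 10.75 and 10.44 in the Salv CKO-labelled samples against 10.94 and 10.55 in the controls. Kcnj12, its close relative in the same current, stood at 8.47 and 8.09 against 8.40 and 8.45. The differences were -0.15 ± 0.26 and -0.14 ± 0.24 (SE), and the groups overlapped for both. Kcnj4, another strong inward rectifier, ranged further, with 9.29 in Salv CKO 1 and 8.25 in Salv CKO 2, compared with 7.99 in Control 1 and 9.38 in Control 2. Its high samples were those in which the summed lung epithelium markers were high, and the part of these markers in its levels was not tested.

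The acetylcholine-gated channel joins Kcnj3 and Kcnj5 and slows the heart under vagal tone. Kcnj3 had levels of 7.62 and 7.62 in the Salv CKO-labelled samples against 6.15 in Control 1 and 7.40 in Control 2. It lay higher on every array of the Salv CKO-labelled samples, as did 3.92% of bright named genes, but most of the gap came from Control 1. The difference of 0.85 ± 0.46 (SE, limma, adjusted p = 0.999) fell to 0.22 without Control 1. Kcnj5 pointed the other way, with 10.41 and 10.56 against 10.80 and 10.61 in the controls, a difference of -0.22 ± 0.22. Both Kcnj3 and Kcnip2 were thus lowest in Control 1.

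The ATP-sensitive channel couples metabolism to the membrane and is built from Kcnj11 or Kcnj8 with a sulfonylurea receptor. Kcnj11, the pore of heart muscle, had levels of 10.54 and 10.43 in the Salv CKO-labelled samples against 10.18 and 10.15 in the controls. Its arrays ran from 10.46 to 10.63 in Salv CKO 1 and from 10.40 to 10.45 in Salv CKO 2, compared with 10.11 to 10.26 in Control 1 and 10.06 to 10.31 in Control 2. The groups did not overlap on any array, and the difference of 0.32 ± 0.21 (SE, limma, adjusted p = 0.999) was small. It was 0.14 with arrays centred on their medians and 0.65 as the mean over both probes, of which the dimmer differed by 0.97. Deposited intensities before normalization averaged 1237 and 1634 against 1241 and 1042, so the groups overlapped before normalization. Kcnj8, the pore known from vessels, overlapped, with 9.92 and 9.91 against 9.63 and 9.99. The receptor genes Abcc9 (11.36 and 11.24 against 11.12 and 11.27) and Abcc8 (9.49 and 9.43 against 9.27 and 9.27) differed by 0.10 and 0.19, and Abcc9 by -0.096 with median centring.

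Kcnj15, an inward rectifier known from kidney, was bright and varied widely, with levels of 5.77 in Salv CKO 1 and 6.74 in Salv CKO 2, compared with 7.37 in Control 1 and 6.30 in Control 2. Its order over the 4 samples was that of Kcna5, with Control 1 highest and Salv CKO 1 lowest. Kcnj9, a neuronal subunit of the acetylcholine-gated class, had the smallest p among the probes that stood for the members (limma, unadjusted p = 0.00704). Its deposited intensities averaged 1.33 and 2.67 in the Salv CKO-labelled samples against 5.00 and 5.67 in the controls, close to background. The difference of -1.25 ± 0.27 shrank to -0.28 at a pseudocount of 16, so its size is set by the pseudocount.

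Among the tandem-pore genes, those of the stretch- and acid-sensitive background currents did not part the groups. Kcnk2, a stretch-sensitive channel of heart muscle, ranged from 9.63 to 9.88 over the 4 samples and differed by -0.038 ± 0.22 (SE). Kcnk3, an acid-sensitive channel, had levels of 7.0 and 7.58 in the Salv CKO-labelled samples against 7.06 and 7.52 in the controls. Kcnk6, a weak inward rectifying member, differed by -0.13 ± 0.22. Kcnk13, a member known from microglia, had levels of 6.01 and 6.37 against 6.75 and 6.62 in the controls. It was lower on every array after normalization, as were 4.91% of bright named genes. Deposited intensities averaged 65 and 92 against 99.7 in Control 1 and 92 in Control 2, and single arrays overlapped before normalization. The difference in Kcnk13 of -0.49 ± 0.24 (SE, limma, unadjusted p = 0.0984) did not pass, and it was -0.32 without Salv CKO 1.

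Kcnk9 and Kcnk1 varied across the labels and not between them. Kcnk9, an acid-sensitive channel related to Kcnk3, had levels of 8.20 in Salv CKO 1 and 5.76 in Salv CKO 2, compared with 6.03 in Control 1 and 7.91 in Control 2. Kcnk1, a channel of epithelia and heart, stood at 9.98 and 8.95 against 9.0 and 9.79 in the same order. Each group thus held 1 high and 1 low sample of both genes, and the differences were 0.015 ± 1.03 for Kcnk9 and 0.071 ± 0.47 for Kcnk1 (SE). The high samples were again those with a high sum of lung epithelium markers. Among these markers, the airway secretory genes Scgb3a2 stood at 10.61 and 3.29 against 4.02 and 11.55, and Scgb1a1 at 8.14 and 4.07 against 3.68 and 11.19, in the same order of samples. Sftpd, Sftpb and Sftpc were also higher in Salv CKO 1 and Control 2, but Sftpc ranged only from 4.59 to 5.62. Cdh1 did not follow, at 4.12 and 4.48 against 3.93 and 4.90. The part of lung tissue in the levels of Kcnk9 and Kcnk1 was not tested.

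Calcium-activated genes were mostly dim. Kcnma1, the pore of the large-conductance BK channel of smooth muscle, had levels of 5.19 and 4.99 in the Salv CKO-labelled samples against 4.17 and 4.30 in the controls. The difference of 0.86 ± 0.22 (SE, limma, unadjusted p = 0.013, adjusted p = 0.999) stayed between 0.76 and 0.96 with 1 sample left out, and was 0.53 at a pseudocount of 16. Single arrays overlapped, with deposited intensities from 25 to 45 in the Salv CKO-labelled samples and from 11 to 31 in the controls. Its accessory subunit Kcnmb1, also of smooth muscle, was close to background, at intensities of 0.333 and 4.67 against 5.67 and 2.33. Of the 7 measured smooth muscle and pericyte markers, 7 had a difference below 0, with a median of -0.80, while 46.9% of named genes had one above 0. In limma, 3 of them, the dim Cnn1, Tagln and Lmod1, were lower at an unadjusted p under 0.05, against 1.76% of named genes. None passed after adjustment. The dim markers Acta2, Cnn1, Tagln and Lmod1 differed by -2.80 to -0.80, while the bright ones, Rgs5, Cspg4 and Pdgfrb, differed by -0.058, -0.22 and -0.27. Acta2 stood at 2.26 and 2.85 against 3.62 and 7.09. The summed intensity of these markers was 3860 and 3981 against 5371 and 4145, and their part in the level of Kcnma1 was not tested.

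Kcnn2, the small-conductance channel known from atria, overlapped between the groups, with 6.25 and 6.95 in the Salv CKO-labelled samples against 6.45 and 6.77 in the controls. Kcnn4, the intermediate-conductance channel of blood cells, differed by -0.19 ± 0.21 (SE) without overlap, and by 0.045 as the mean over its 3 probes. Kcnn1 and Kcnn3 were dim. The brighter Kcnn3 probe differed by 0.10. The other, near background at levels of 1.07 and 0.76 against 2.17 and 2.19, differed by -1.27 (limma, unadjusted p = 0.00332, adjusted p = 0.999). The sodium-activated Kcnt2 had levels of 5.73 and 6.10 against 4.39 in Control 1 and 6.12 in Control 2, and its difference of 0.66 turned to -0.20 without Control 1.

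Of the other accessory genes, Kcne4, an inhibitory partner of Kv channels, was bright in all samples, with 9.69 and 9.90 in the Salv CKO-labelled samples against 9.74 and 10.14 in the controls. The cytoplasmic beta subunit genes Kcnab1 and Kcnab3 differed by -0.049 and -0.011, and Kcnab1 ranged over only 0.11 between samples. Kcnmb4, the neuronal BK beta subunit, differed by -0.064. The dim accessory genes Kcne2, Kcnip3 and Kcnip4 differed by -0.14, -0.18 and -0.016.

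The remaining dim members stood close to background in many cases. Kcnh1, a neuronal voltage-gated channel, had levels of 5.30 and 5.43 in the Salv CKO-labelled samples against 4.63 and 4.76 in the controls, and it lay higher on every array after normalization, as did 2.58% of all named genes, while 3.35% lay lower on every array. Its difference of 0.67 ± 0.21 (SE, limma, unadjusted p = 0.0286, adjusted p = 0.999) was 0.46 at a pseudocount of 16. Its deposited intensities averaged 41.3 and 47.0 against 22.3 and 23.7, and single arrays overlapped at 35. The voltage-gated genes Kcnd1, Kcnq3, Kcnq5, Kcng4 and Kcnv2 were dim and differed by 0.10, -0.33, -0.53, 0.63 and -0.29. Of these, Kcnq3, Kcnq5 and Kcnv2 lay lower in both Salv CKO-labelled samples, Kcnq3 at 5.64 and 5.78 against 6.19 and 5.90 in the controls. Kcnt1, a sodium-activated channel, stood at 3.93 and 3.83 against 3.53 and 3.52, and Kcnu1, the sperm channel SLO3, near background at 1.74 and 1.90 against 2.50 and 1.93. Larger differences among dim voltage-gated members were 0.88 for Kcns3, 0.74 for Kcnf1 and 0.69 for Kcns1, with SEs of 0.45, 0.52 and 0.62. Kcns3 stood at 4.34 and 4.92 against 3.22 and 4.28. Kcnmb2 and the regulator Kcnrg differed by -0.20 and -0.39. Kcnq1ot1, the antisense RNA at the Kcnq1 locus, had intensities of 7.33 and 6.00 against 4 and 4, too dim for its difference of 0.71 to be read. Among 11 genes with further probes, 15 such probes were measured, and 8 of them had the sign of the brighter probe.

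Several bright members varied widely between samples. Over all levels, the highest and lowest sample were at least 1 apart for 34 of 90 members, against 21.3% of named genes. The highest and lowest sample were at least 1 apart on the log2 scale for 11 of 39 bright members, against 9.86% of bright named genes. Between mean levels of 6 and 8 this held for 7 of 23 members, against 14.8% of named genes at these levels, and above 8 for 4 of 16, against 7.24%. The limit of 1 was chosen after the data were seen, and these shares are a description. For the widest members the technical SD was small beside the range. It was 0.056 for Kcnip2, 0.21 for Kcnk9 and 0.080 for Kcna5, beside ranges of 2.56, 2.43 and 1.64. Over the bright members the median SD was 0.11 between technical arrays and 0.22 between samples of a group, against 0.088 and 0.19 over bright named genes. The bright members also had a lower median level, at 7.40 against 8.82.

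**Figure D5:**
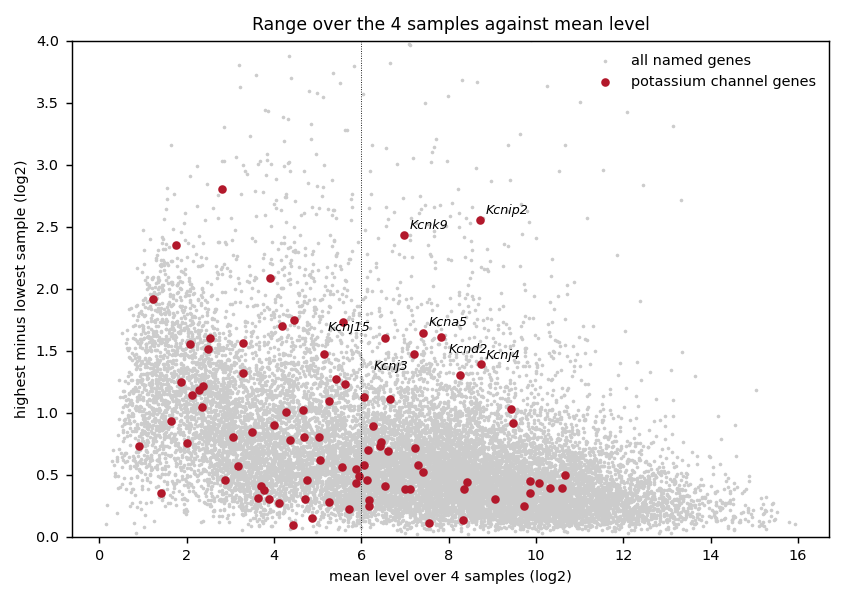
Highest minus lowest sample level (y axis, log2) against mean level over the 4 samples (x axis, log2) for all named genes (grey) and the 90 potassium channel genes (red). The dotted line marks a mean level of 6, and 34 named genes lie above the plotted range. Kcnip2 and Kcnk9 have ranges of 2.56 and 2.43.

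Genes that work with potassium channels were taken from a list of 45 partners, of which 38 were measured. In limma, 0 were higher and 1 lower at an unadjusted p under 0.05, against 1.55% higher and 1.76% lower of named genes. The median difference was -0.069 with 17 of 38 above 0, against 46.9% of named genes. The lower gene was Etv1, a transcription factor of the conduction system, at dim levels of 2.01 and 1.62 against 2.51 and 2.63 in the controls. The channel anchors Actn2 and Flna differed by -0.024 and -0.17. Of the accessory proteins of Kcnd2 and Kcnd3, Dpp6 was at background and Dpp10 stood at 6.07 and 5.87 against 5.94 and 5.35. The transcription factor Tbx5 differed by 0.13 and Irx3 by 0.062, and Irx3 ranged from 8.86 in Control 1 to 10.26 in Control 2. The BK gamma subunits Lrrc38 and Lrrc55 differed by 0.24 and -0.18, and the ubiquitin ligase Nedd4 and the kinase subunit Prkaca by 0.24 and -0.11. The sodium-potassium pump subunits Atp1b1 and Atp1b3 differed by -0.11 and 0.10, and the cotransporters Slc12a2 and Slc12a7 by -0.18 and 0.33. None of these partners passed in limma after adjustment.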

How the data were processed

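One-colour arrays of 12 hybridisations were used, 3 technical arrays for each of 2 Salv CKO and 2 Control samples. The deposited values are intensities, whole numbers from -10 to 65474, whose values below 0 show a subtracted background. How the authors subtracted the background, and whether they normalized, is not given in the labels. The arrays were quantile normalized, values under the lowest positive value (0.0833) were set to it, and log2(intensity + 1) was averaged over technical arrays. The size of differences of dim probes depends on this floor and on the pseudocount of 1. The groups were compared in limma 3.58.1 (R 4.3.3; lmFit and eBayes, 2 residual and 2.60 prior degrees of freedom) over all 26423 probes, two-sided, with Benjamini-Hochberg adjustment. The number of samples limits the precision, and p-values rest on the spread of 2 samples a group, which the design text calls biological. Probes were named from the platform annotation (20377 with 1 symbol, 6046 with none), updated through RefSeq GRCm38.p6, where all 105 member probes matched by symbol.

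Members, lists and tests were chosen with earlier results of these data known. Named were measured genes of the cardiac current list, members at an unadjusted p under 0.05, the 3 brightest of each class, the 3 bright members with the widest range, and partners at that p or the 2 brightest of their group. Kcnj15, Kcnk13, Kcnh3, Kcne1l, Kcns1, Kcns3 and Kcnf1, second probes and single markers were named after their values were seen. The fit was tested on simulated data. Alternatives covered normalization, pseudocount, technical median, replicate block, each sample left out, 12 arrays, dim filters and probe choice. Sample numbers did not pair the samples (correlation of deviations -0.25 over all probes and -0.48 over bright probes). Figures were drawn with matplotlib 3.10.9.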

Additional observations from a re-analysis of the deposited data

How the results depend on the processing

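The 0 members past an adjusted p of 0.05 (4 at unadjusted p under 0.05) stayed 0 in every setting except the fit of 12 arrays with the sample as a random block, which gave 1 (Kcnd2) and 12 (13.3% of members, against 8.33% of probes). With the replicate block the unadjusted count was again 4 (2.81% of probes), with Kcns3 in place of Kcnh1, and no adjusted call changed. With a crossed pairing, chosen after seeing the data because the deviations correlated at -0.25, and at -0.48 over bright probes, it was 6 (5.86% of probes). It was 9 without normalization (4.48% of probes) and 1 with either dim filter, where fewer genes were tested, and from 1 (without Salv CKO 1, 2.41% of probes) to 14 (without Control 2, 10.7% of probes) with 1 sample left out. The 9 higher and 22 lower members became 3 and 8 with either dim filter, where 13.7% and 16.1% of named genes with a mean level of at least 6 did so. They became 22 and 4 without normalization. They ran from 21 to 25 and from 33 to 40 with 1 sample left out, where a group of 1 overlaps less by construction. Shares of named genes are not given without normalization or with 1 sample left out, so nothing about the family is read from those counts. The median of -0.039 became 0.16 without normalization and ran from -0.11 to -0.038 with 1 sample left out. At a mean level of at least 7, 25 members were bright in place of 39.

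Differences of 79 named genes gave 1054 values under other settings, 963 of the same sign and side of the threshold. The 1 that passed was Kcnd2 (-1.15) with the random block, and 90 turned sign, none of them called, and the cause was not tested. With the mean over probes the differences were Kcnn3 -0.58, Kcnn4 0.045 and Kcnt1 -0.0039. With median centring they were Abcc9 -0.096, Atp1b3 -0.11, Irx3 -0.084, Kcnip4 0.096, Kcnj4 -0.030, Kcnj8 -0.073, Kcnk1 -0.086, Kcnk9 -0.068, Kcnn2 0.0031 and Tbx5 -0.056. With the median of technical arrays they were Kcnab2 0.041, Kcnk3 0.0088 and Kcnu1 0.28. Without normalization they were Kcna7 0.15, Kcnab1 0.075, Kcnab2 0.17, Kcnab3 0.18, Kcnb2 0.031, Kcne2 0.16, Kcnip3 0.030, Kcnip4 0.29, Kcnk3 0.17, Kcnmb2 0.076, Kcnmb4 0.13, Kcnn1 0.12, Kcnn2 0.19, Kcnn4 0.0063 and Kcnu1 0.072. Kcnip4 was 0.0076 at a pseudocount of 16 and 0.0078 at 50. With 1 sample left out the range spanned 0 for Actn2 (-0.083 to 0.035), Atp1b1 (-0.24 to 0.024), Flna (-0.34 to 0.0043), Irx3 (-0.64 to 0.77), Kcna5 (-1.25 to 0.22), Kcna7 (-0.15 to 0.073), Kcnab2 (-0.25 to 0.18), Kcnab3 (-0.22 to 0.19), Kcnc1 (-0.13 to 0.57), Kcnc4 (-0.096 to 0.25), Kcnd1 (-0.030 to 0.23), Kcne2 (-0.69 to 0.40), Kcne4 (-0.34 to 0.053), Kcng2 (-0.38 to 0.066), Kcng4 (-0.024 to 1.28), Kcnh2 (-0.62 to 0.30), Kcnh4 (-0.10 to 0.25), Kcnip4 (-0.52 to 0.48), Kcnj12 (-0.33 to 0.050), Kcnj2 (-0.34 to 0.042), Kcnj4 (-0.61 to 0.78), Kcnj8 (-0.074 to 0.28), Kcnk1 (-0.44 to 0.59), Kcnk2 (-0.16 to 0.085), Kcnk3 (-0.29 to 0.29), Kcnk9 (-1.20 to 1.23), Kcnmb1 (-1.79 to 0.085), Kcnmb4 (-0.28 to 0.15), Kcnn1 (-0.26 to 0.013), Kcnn2 (-0.36 to 0.33), Kcnn3 (-0.20 to 0.41), Kcnrg (-1.27 to 0.48), Kcnt2 (-0.20 to 1.52), Lrrc38 (-0.057 to 0.53), Lrrc55 (-0.50 to 0.14), Sav1 (-0.46 to 0.21), Slc12a2 (-0.36 to 0.0056) and Slc12a7 (-0.011 to 0.67). It kept its sign but moved by over 1.5 times for the bright members Kcna1 (-0.64 to -0.29), Kcna4 (-0.83 to -0.24), Kcna6 (-0.85 to -0.22), Kcnc2 (-0.76 to -0.25), Kcne1 (-1.11 to -0.30), Kcne3 (-0.67 to -0.078), Kcnh7 (0.049 to 0.37), Kcnip2 (0.20 to 2.45), Kcnj3 (0.22 to 1.47), Kcnj5 (-0.31 to -0.12), Kcnk6 (-0.22 to -0.044), Kcnk13 (-0.67 to -0.32) and Kcnq1 (0.016 to 0.35), and likewise for Kcnab1, Kcnb2, Kcnh3 and Kcnj15. The number of samples, and for dim members signal near background, limits these values.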
